A study of Mus musculus with 24 samples.

Results

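Newly made RNA of Alkbh5 del-cIDR mouse embryonic stem cells was followed over 4 lengths of metabolic labelling. The del-cIDR time course was chosen by genotype label and made up 8 of the 24 libraries of the series, 2 each at 10, 20, 40 and 60 minutes of labelling. All cells were E14TG2a, an established line of mouse embryonic stem cells, grown with serum, LIF, PD0325901 (a MEK inhibitor) and CHIR99021 (a GSK3 inhibitor). The del-cIDR cells carry an Alkbh5 allele from which an intrinsically disordered region, labelled cIDR, is deleted. Alkbh5 KO and WT cells, with 8 libraries each, are used below only for comparison. Cells in dishes seeded at equal density received 1 mM EU, RNA of EU-labelled Drosophila cells was added to every sample, and labelled RNA was captured and sequenced. As far as the labels tell, each genotype is 1 line, so clone and genotype cannot be told apart. Whether both libraries of a time came from separate cultures is not stated, and the p-values then measure only the spread between these libraries.

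EU is a uridine analogue that cells build into RNA in place of uridine and that carries a chemical handle for attaching biotin. RNA captured after a short pulse is mostly still being transcribed or processed, and with longer pulses finished, exported transcripts make up more of it. ALKBH5 is a nuclear demethylase that removes the m6A mark from RNA, a modification placed by the METTL3 and METTL14 complex and read by YTH proteins that act on splicing, export and decay of the marked transcript. Intrinsically disordered regions are protein stretches without a fixed fold.

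Captured RNA increased steeply between 10 and 20 minutes and less after that. Reads in genes per spike-in read were 250 and 260 in the libraries at 10 minutes, 923 and 1452 at 20 minutes, 1696 and 2189 at 40 minutes and 1615 and 2202 at 60 minutes. The 10-minute libraries lay below all the others, and the 40 and 60-minute libraries overlapped. Mean levels were 255 ± 6.93, 1188 ± 374, 1942 ± 349 and 1909 ± 415 reads per spike-in read at 10, 20, 40 and 60 minutes (SD, n = 2 each), so that 60 minutes stood at 7.48 times the level of 10 minutes. Repeat elements behaved alike, with 286 ± 25.3, 1327 ± 421, 2047 ± 401 and 1784 ± 407 reads per spike-in read. On the log2 scale genes gained 1.11 per doubling of labelling time (exact permutation test over 2520 arrangements of the 8 libraries, two-sided, p = 0.002381) and repeats 1.02 (p = 0.005159). Without the 10-minute libraries both slopes were smaller and did not pass the test, at 0.475 for genes (exact permutation p = 0.1) and 0.320 for repeats (exact permutation p = 0.2556). The libraries at 20 to 60 minutes had 12686169 to 21275947 reads in genes, against 3129083 and 4006054 at 10 minutes, and the part of depth in the comparisons with 10 minutes was not tested.

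On the spike-in scale nearly every gene increased. The median gene of the deposited columns was up by 2.25, 2.88 and 2.72 (log2) at 20, 40 and 60 minutes. For that reason changes from here on are relative to the median gene, except those of single repeat copies. Levels are in RPM, the reads of a gene scaled to the same total of reads in genes for every library, and a log2 change is the difference of log2(RPM + 0.5) after the median gene of each library was set to 0. On that scale the median change over all genes tested was 0.05, 0.09 and 0.13 at 20, 40 and 60 minutes, and a gene's value is to be read against it. By limma with Benjamini-Hochberg adjustment at 0.05, 5769 of 21078 genes (27.4%) rose and 2623 (12.4%) fell at 60 minutes relative to 10 minutes. Together they are 39.8% of the genes tested. At 40 minutes 4270 (20.3%) rose and 2145 (10.2%) fell (30.4% in all), and at 20 minutes 1906 (9.04%) rose and 1073 (5.09%) fell (14.1% in all), all against the same 10-minute libraries. When the distributions of all libraries were made equal by quantile normalization, the split was more even. It was 3818 higher and 3435 lower of 21078 (median 0.00499) at 60 minutes and 3080 higher and 2672 lower at 40 minutes. Counts of lists under quantile normalization, given below for 60 minutes, are to be read against 3818 higher and 3435 lower, not against 27.4% and 12.4%. Of the genes that rose by 60 minutes, 89.0% were already above their level of 10 minutes at 20 minutes (median 0.28, then 0.50 and 0.70), and of those that fell 93.8% were already below it (median −0.46, then −0.69 and −0.86).

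Alkbh5 itself was read in every library. It had 61.7 and 77.3 RPM at 10 minutes, 91.3 and 98.6 at 20 minutes, 104 and 107 at 40 minutes and 109 and 102 at 60 minutes. Its level rose relative to the median gene by 0.87 ± 0.105 at 60 minutes relative to 10 minutes (standard error, n = 2 each; limma adjusted p = 5.06e-05). KO libraries held 60.9 to 95.9 RPM of Alkbh5 reads and WT libraries 95.7 to 150.3, so whole-gene reads do not check the del-cIDR or KO labels.

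The genes that accumulated fastest include several zinc finger genes. Zfx, which encodes an X-linked transcription factor, had 40.2 and 27.8 RPM at 10 minutes, 59.8 and 56.1 at 20 minutes, 110 and 103 at 40 minutes and 158 and 164 at 60 minutes. Its groups did not overlap at any step, and it rose by 2.51 ± 0.142 at 60 minutes relative to 10 minutes (adjusted p = 3.86e-07 by limma). Slc30a1, the gene of a zinc exporter of the cell surface, had 16.2 and 17.9 RPM at 10 minutes, 28.4 and 30.1 at 20 minutes, 57.7 and 51.9 at 40 minutes and 78.4 and 70.1 at 60 minutes. It too was higher at each longer pulse, with a rise of 2.35 ± 0.115. For the zinc finger gene Zfp518a the values were 93.4 and 88.8, 171 and 156, 289 and 250, and 334 and 354 RPM in the same order of times, a rise of 2.17 ± 0.0905. Plekhf2, which encodes an endosomal lipid-binding protein, stood at 280 and 277 RPM at 60 minutes, against 82.9 and 75.4 at 10 minutes. Among the 12 highest genes were also Zfp819 (2.24), Pla2g4c (2.21), which encodes a phospholipase A2, and Cmtr2 (2.10), whose product methylates the ribose of the second nucleotide of capped mRNA. The remaining ones were Vmn1r47, Gm2128, Gm42664, 1700019D03Rik and Gm37309, with rises between 2.10 and 2.33.

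**Figure D1:**
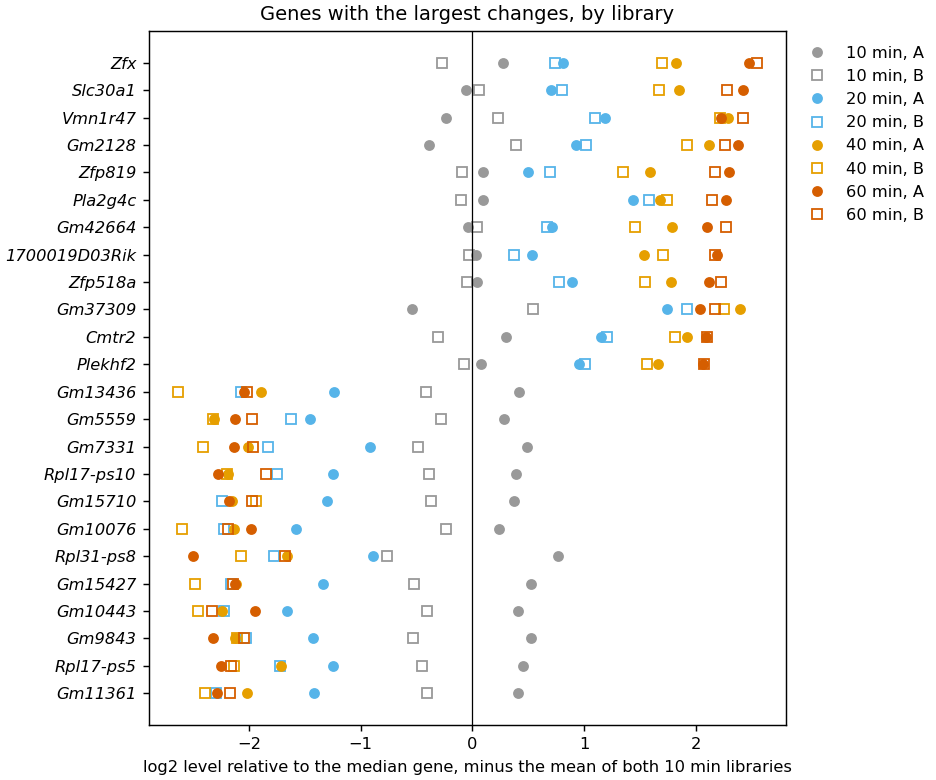
Level of the 12 highest and the 12 lowest genes at 60 minutes relative to 10 minutes in each of the 8 del-cIDR libraries, as log2 relative to the median gene minus the mean of both 10-minute libraries (filled circles, library A; open squares, library B). Most rising genes, Zfx among them, lie higher at each longer pulse, while the falling genes reach their low level at 20 or 40 minutes and their 10-minute libraries lie apart.

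Since EU replaces uridine, the letters T of a gene's sense strand mark where label can enter. The first 90 coding bases of 3 risen genes are set beside those of 2 fallen genes described below, each from 1 annotated transcript (GENCODE M21), with T in capitals. All of these stretches come from the coding start of the gene, and the whole transcripts hold more letters than are shown.
Zfx: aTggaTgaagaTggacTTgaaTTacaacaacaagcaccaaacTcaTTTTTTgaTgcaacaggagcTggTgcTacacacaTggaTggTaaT
Slc30a1: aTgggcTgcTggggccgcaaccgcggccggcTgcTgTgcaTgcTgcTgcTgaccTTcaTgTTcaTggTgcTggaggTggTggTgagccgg
Zfp518a: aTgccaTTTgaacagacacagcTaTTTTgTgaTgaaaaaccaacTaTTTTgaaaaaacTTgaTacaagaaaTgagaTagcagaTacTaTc
Hist1h2ac: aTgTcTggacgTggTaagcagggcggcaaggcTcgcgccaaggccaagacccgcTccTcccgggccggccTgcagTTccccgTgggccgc
Kmt5c: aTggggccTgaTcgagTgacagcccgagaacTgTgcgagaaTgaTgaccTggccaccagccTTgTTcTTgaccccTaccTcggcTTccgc
The stretches of Zfx, Slc30a1 and Zfp518a hold 22, 21 and 24 T, and those of Hist1h2ac and Kmt5c hold 12 and 19. Over the whole coding sequence T makes up 24.5, 20.6 and 26.6% in the 3 risen genes and 11.5 and 20.4% in the 2 fallen ones.

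The 12 lowest genes were Gm11361, Rpl17-ps5, Gm9843, Gm10443, Gm15427, Rpl31-ps8, Gm10076, Gm15710, Rpl17-ps10, Gm7331, Gm5559 and Gm13436, with falls between −2.23 and −2.03. Most are processed pseudogenes, and how reads were shared between them and their parent genes is not known. Gm9843 had 210 and 102 RPM at 10 minutes, 54.6 and 35.4 at 20 minutes, 30.5 and 31.5 at 40 minutes and 24.1 and 28.9 at 60 minutes. Gm5559 had 164 and 112 RPM at 10 minutes, 49.8 and 43.8 at 20 minutes, 24.7 and 25.1 at 40 minutes and 25.8 and 28.2 at 60 minutes. In both genes the 10-minute libraries were apart by more than any later pair, and both still lay above all later libraries. Over all 1568 processed pseudogenes tested, 12.2% rose and 20.0% fell, with a median of −0.15, while 33.6% of 14166 protein-coding genes rose and 11.3% fell, with a median of 0.18.

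Genes of the m6A pathway and of RNA processing lay above the median gene. Of 27 m6A genes, 22 rose and none fell at 60 minutes relative to 10 minutes, with a median of 0.59. Over all genes tested 27.4% rose and 12.4% fell, with a median of 0.13. Ythdf3, a cytoplasmic m6A reader, had 113 and 102 RPM at 10 minutes, 148 and 148 at 20 minutes, 203 and 185 at 40 minutes and 215 and 225 at 60 minutes. Its groups were separate at each time, and its rise was 1.29 ± 0.085. Rbm15, which guides the m6A writer complex to RNA, rose by 1.04. The lowest members did not pass the test: Mettl5, a methyltransferase of ribosomal RNA, at −0.31 and the demethylase Fto at 0.06. Without 10-minute library A the count was 21 higher and none lower, and under quantile normalization it was 13 higher and 3 lower.

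Other lists of RNA metabolism also held a larger share of risen members than the 27.4% over all genes. Among 24 genes of CLK kinases, cyclins L and SR proteins, which control splicing, 20 rose and none fell (median 0.54). Only 12 of them had a clear split of reads between the libraries of each time. In a fit without unclear splits 8 of these 12 rose and none fell (median 0.57). For the other members the spread within a pair may be understated. Clk4, a kinase of SR proteins, had 68.9 and 72.5 RPM at 10 minutes, 142 and 131 at 20 minutes, 178 and 170 at 40 minutes and 172 and 166 at 60 minutes. It was near its highest level by 40 minutes and rose by 1.51 at 60 minutes relative to 10 minutes. Ccnl1, a cyclin that binds splicing kinases, rose by 1.29, while Clk3 (−0.15) and Srsf12 (−0.16) did not pass. Of 16 genes of the CCR4-NOT complex, which shortens poly(A) tails, 12 rose and none fell (median 0.61). Cnot6, one of its deadenylases, rose by 1.06 and the scaffold subunit Cnot2 by 0.92. Nuclear exosome genes, whose products degrade RNA in the nucleus, counted 17 higher and none lower of 26 (median 0.51), with Rbm7 at 1.03 and Zcchc7 at 0.95. Of 56 genes of RNA polymerase II and its elongation factors, 30 rose and 3 fell (median 0.28). Ints6 of the Integrator complex and Ccnt1, the cyclin of the elongation kinase P-TEFb, both rose by 1.16. The small polymerase subunit gene Polr2k fell by 0.67 and lost the call under most alternative settings. Quantile normalization left 13 higher and 12 lower in that list, beside 3818 higher and 3435 lower of all 21078 genes. Under the same scaling the CLK, cyclin L and SR protein genes counted 12 higher and 3 lower (median 0.18), the CCR4-NOT genes 7 and 2 (median 0.28) and the exosome genes 11 and 1 (median 0.198).

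Zinc finger genes named Zfp encode DNA-binding repressors and activators. Of 373 tested, 213 rose and 15 fell, beside 27.4% higher and 12.4% lower among all genes, with medians of 0.18, 0.32 and 0.50 at 20, 40 and 60 minutes. Zfp558 rose by 2.18, while Zfp174 fell by 1.11 and Zfp579 by 1.01. Removing the trend with GC content left 177 higher and 25 lower, and leaving out any 1 library gave 169 to 220 higher.

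Among genes of the naive pluripotent state 20 of 30 rose and 4 fell at 60 minutes relative to 10 minutes, beside 27.4% higher and 12.4% lower over all genes. Their medians were −0.05, 0.09 and 0.43 at 20, 40 and 60 minutes, with most of the gain after 40 minutes. Rif1, a telomere and replication timing factor, had 757 and 778 RPM at 10 minutes, 886 and 928 at 20 minutes, 1251 and 1258 at 40 minutes and 1760 and 1728 at 60 minutes. The split of its reads between the libraries of a time was not clear at every time, so the spread within a pair may be understated. The same holds for other members of this list. In a fit without unclear splits 21 of the 30 genes remained, of which 12 rose and 4 fell (median 0.37). Tdh, the threonine dehydrogenase of mouse stem cells, had 155 and 151 RPM at 60 minutes, against 64.4 and 61.4 at 10 minutes, a rise of 1.54 ± 0.0793. Dppa5a and Tdgf1, both highly expressed in these cells, fell by 0.77 and 0.68. The call for Dppa5a was lost without 60-minute library A (−0.64, adjusted p = 0.1317 by limma). After quantile normalization 11 of the list were higher and 6 lower, with a median of 0.08. Of 21 formative and primed genes 7 rose and 3 fell, led by Zic5 (1.53) and Zic2 (1.49), with a median of 0.09 that was −0.02 under quantile normalization.

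Genes of the 2-cell-like state counted 6 higher and none lower of 18 tested, a share of risen members near the 27.4% of all genes. Their median was 0.70, but 0.16 without 10-minute library B and 0.34 over the 8 members with a mean of at least 5 RPM. Pramel7 had 10.7 and 12.5 RPM at 10 minutes, 25.7 and 23.3 at 20 minutes, 29.2 and 29.9 at 40 minutes and 34.5 and 31.3 at 60 minutes, a rise of 1.73. In bulk libraries more cells of that state and more RNA per cell cannot be told apart. Zscan4c, the marker of the state in mouse stem cells, stayed between 4.95 and 6.78 RPM in all 8 libraries and did not pass the test (−0.02). Without 10-minute library A the list counted 11 higher and 1 lower, and leaving out any 1 library gave 3 to 11 higher.

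Signalling lists were mixed, beside 27.4% higher and 12.4% lower over all genes (median 0.13). Of 39 immediate early genes, switched on fast by growth factors, 15 rose and 5 fell (median 0.24), or 18 and 10 without 10-minute library A. Srf, whose product binds the promoters of many of them, had 31.5 and 32.6 RPM at 10 minutes, 59.1 and 60.4 at 20 minutes, 79.2 and 76.0 at 40 minutes and 82.0 and 74.9 at 60 minutes, a rise of 1.54. Maff fell by 1.08. Myc was scarce, at 0.749 and 0.639 RPM at 10 minutes, 2.06 and 2.05 at 20 minutes, 2.73 and 3.79 at 40 minutes and 6.88 and 6.18 at 60 minutes. The values of Myc at 10 minutes rest on 3 and 2 reads. Of 13 Kruppel-like factor genes 7 rose and 2 fell: Klf6 rose by 1.36 and Klf9 by 1.18, and Klf3 fell by 0.59 and Klf13 by 0.52, the call for Klf13 being lost without 60-minute library B (−0.44). Id and inhibitory Smad genes, targets of BMP signalling, counted 4 higher and none lower of 8, MAPK feedback genes 9 higher and none lower of 19, and Wnt targets 4 higher and 3 lower of 11. Axin2, a feedback inhibitor of the Wnt pathway, rose by 0.75, a call lost without 60-minute library A (0.65), and the transcription factor gene Tcf7 fell by 0.71.

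Further lists are set beside the same shares over all genes, 27.4% higher and 12.4% lower. Of 35 p53 targets 19 rose and none fell (median 0.32), or 13 and 4 under quantile normalization (median 0.13), with Eda2r at 1.496 and Trp53inp1 at 1.26. Cell cycle genes counted 25 higher and 2 lower of 38 (median 0.53), or 14 and 5 under quantile normalization (median 0.17). Wee1, the kinase that holds back entry into mitosis, rose by 1.07 and cyclin E2 (Ccne2) by 1.04, and cyclin D3 (Ccnd3) fell by 0.56. Histone modifying enzymes counted 36 higher and 5 lower of 57 (median 0.36), or 21 and 12 under quantile normalization. Sirt1, a deacetylase, had 94.4 and 93.6 RPM at 10 minutes, 130 and 133 at 20 minutes, 184 and 185 at 40 minutes and 229 and 224 at 60 minutes, a rise of 1.53. The paralogues Kmt5b and Kmt5c, which methylate lysine of histone H4, moved apart. Kmt5b rose by 1.41, and Kmt5c fell by 0.87, with 159 and 161 RPM at 10 minutes, 93.3 and 104 at 20 minutes, 79.2 and 97.3 at 40 minutes and 76.6 and 68.7 at 60 minutes. Kdm6b, a demethylase of histone H3, fell by 0.69. Of 23 imprinted genes 12 rose and 2 fell, with Impact at 1.45 and Plagl1 at 1.09. The next 2 lists had shares of risen members nearer that over all genes. ATF4 targets counted 12 higher and 4 lower of 36 (median 0.22, −0.11 under quantile normalization): the amino acid transporter genes Slc7a3 (1.44) and Slc38a2 (1.14) rose and Phgdh of serine synthesis fell by 0.82. Cholesterol synthesis genes counted 7 higher and 5 lower of 25 (median 0.11, −0.08 under quantile normalization).

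Cytoplasmic ribosomal protein genes lay below the median gene. Of 91 tested, 70 fell and 1 rose at 60 minutes relative to 10 minutes, beside 12.4% lower and 27.4% higher over all genes, with medians of −0.30, −0.61 and −0.61 at 20, 40 and 60 minutes. Together they held 36810 and 27530 RPM at 10 minutes, 27780 and 22160 at 20 minutes, 19590 and 18210 at 40 minutes and 16000 and 17930 at 60 minutes. Library A, the one with more spike-in reads, lay above library B at 10, 20 and 40 minutes, and both 10-minute libraries lay above both 60-minute libraries. The count was 63 lower without 10-minute library A, and 40 to 78 lower when any 1 library was left out. The member that rose, Rpl10l (0.46), is a copy of Rpl10 known from the testis. Its call was lost under 5 settings, among them quantile normalization (0.20) and leaving out 60-minute library B (0.34). Read from the deposited columns themselves, the list's medians lay 0.38, 0.69 and 0.71 below the median gene at 20, 40 and 60 minutes. These genes have many processed pseudogenes, among which reads may be shared.

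Other genes of energy and protein turnover lay closer to the median gene, beside 27.4% higher and 12.4% lower over all genes. Of 30 glycolysis genes 14 fell and 4 rose (median −0.32). Eno2 fell by 1.35 and Tpi1 by 0.81, and Pfkfb3, which makes an activator of glycolysis, rose by 0.76. Nuclear-encoded respiratory chain genes counted 14 higher and 19 lower of 94 (median −0.17), a balance that turned with the library left out. It was 21 higher and 13 lower without 10-minute library A, 12 higher and 45 lower without 10-minute library B, and 7 higher and 33 lower under quantile normalization. Mitochondrial ribosomal protein genes counted 24 higher and none lower of 77 (median 0.18, −0.03 under quantile normalization), with Mrps18b at 1.32, so that the share of risen members was near that of all genes. Without 10-minute library A they counted 40 higher and 1 lower, and without 10-minute library B 20 and 11. Proteasome genes counted 13 higher and 2 lower of 46 (median 0.18, −0.11 under quantile normalization), or 3 higher and 10 lower under that scaling and 21 higher and 1 lower without 10-minute library A.

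RNA made inside mitochondria, by a polymerase of its own, was lower at longer times for its ribosomal RNAs. mt-Rnr1, the small ribosomal RNA, had 3054 and 2866 RPM at 10 minutes, 1689 and 1740 at 20 minutes, 1608 and 1617 at 40 minutes and 1718 and 1687 at 60 minutes. All later libraries lay below both 10-minute libraries, and the fall at 60 minutes was 0.53. The large ribosomal RNA mt-Rnr2 fell by 0.45, and under quantile normalization it stood at −0.061 without a call (limma adjusted p = 0.5167). Of 13 mitochondrial mRNA genes 5 fell and 2 rose (median −0.29), beside 12.4% lower and 27.4% higher over all genes. With the GC trend removed, a setting added after the data were seen, 10 fell and none rose (median −0.68). Those that rose in the first count were mt-Co3 (0.55) and mt-Nd1 (0.32). Neither kept its call with the GC trend removed (0.19 and −0.07), under quantile normalization (0.24 and 0.057) or with no trend in the spread, and mt-Co3 lost it without 60-minute library B (0.39). mt-Nd6, the mRNA of the other strand, fell by 0.59.

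Replication-dependent histone genes, whose mRNAs end in a stem loop and lack a poly(A) tail, were lowest at 20 and 40 minutes. Their medians were −0.65, −0.59 and −0.20 at 20, 40 and 60 minutes. At 20 minutes relative to 10 minutes 24 of 63 fell and none rose (5.09% lower and 9.04% higher over all genes). At 60 minutes relative to 10 minutes 12 fell and 6 rose (12.4% lower and 27.4% higher over all genes). At 60 minutes relative to 20 minutes 18 rose and 2 fell (16.2% higher and 3.03% lower over all genes). At 60 minutes 11 fell and 11 rose without 10-minute library A (median −0.015), and 22 fell and 6 rose without 10-minute library B (median −0.37). Summed over all 70 genes in the table, they held 1654 and 1400 RPM at 10 minutes, 985 and 988 at 20 minutes, 1145 and 985 at 40 minutes and 1387 and 1144 at 60 minutes. Single members went against this course. Hist1h2ac had 24.7 and 23.97 RPM at 10 minutes, 11.3 and 10.7 at 20 minutes, 7.47 and 8.33 at 40 minutes and 6.15 and 5.00 at 60 minutes, a fall of 1.77. Hist3h2a fell by 2.67, to 0.865 and 1.83 RPM at 60 minutes.

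**Figure D2:**
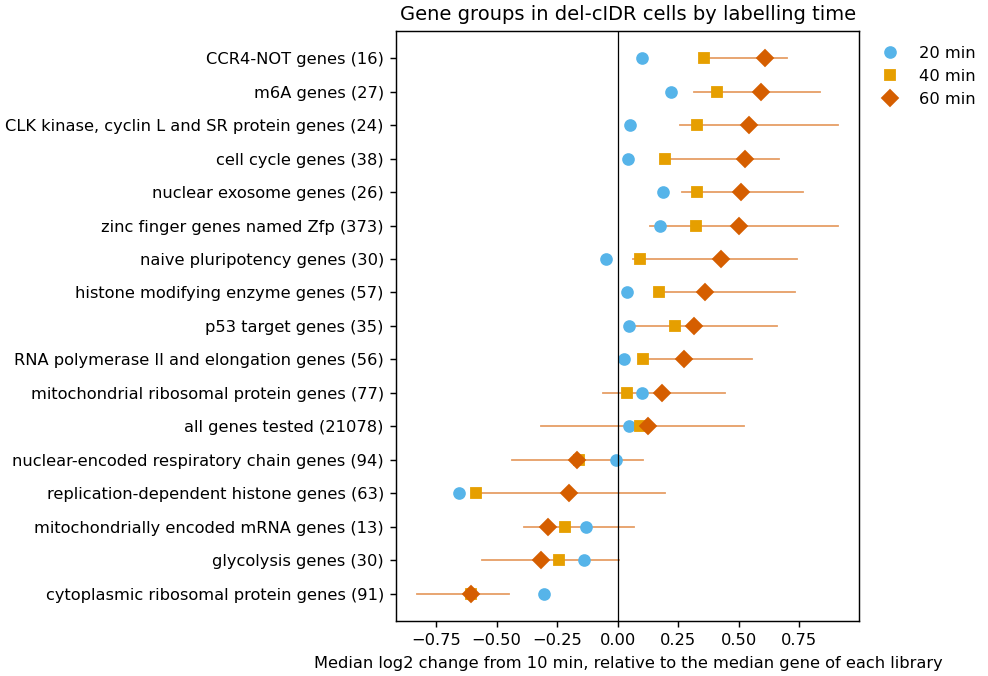
Median log2 change of sets of genes from 10 minutes, relative to the median gene, at 20 minutes (circles), 40 minutes (squares) and 60 minutes (diamonds) in del-cIDR cells, with the number tested in brackets. Lines show the interquartile range of members at 60 minutes. Ribosomal protein genes lie at −0.61 at 60 minutes and m6A genes at 0.59, and replication-dependent histone genes at −0.65 at 20 minutes and −0.20 at 60 minutes.

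Noncoding transcripts went both ways, beside 27.4% higher and 12.4% lower over all genes (median 0.13). Of 35 nuclear long noncoding RNAs 10 rose and 9 fell (median 0.10, −0.10 under quantile normalization). Tug1 had 94.1 and 82.8 RPM at 10 minutes, 173 and 152 at 20 minutes, 244 and 212 at 40 minutes and 238 and 232 at 60 minutes, a rise of 1.67. Meg3, an imprinted long noncoding RNA, had 577 and 705 RPM at 10 minutes, 410 and 481 at 20 minutes, 394 and 396 at 40 minutes and 301 and 265 at 60 minutes, a fall of 0.91. Mir17hg, the host of the miR-17-92 cluster, rose by 1.32, in a list of 10 microRNA hosts with 5 higher and 2 lower (median 0.13, −0.05 under quantile normalization), or 3 and 3 without 10-minute library A. SnoRNA host genes counted 8 higher and 6 lower of 21 (median 0.09, −0.20 under quantile normalization): Snhg14 rose by 0.93 and Gas5, whose spliced RNA decays with translation, fell by 0.75. Of the snoRNA genes on the list 45 of 113 had enough reads, and 7 rose and 7 fell. Only 4 of 15 small nuclear and RNA polymerase III transcript genes could be tested, of which 1 fell. By annotated class, lincRNAs had a median of −0.13 over 745 genes and antisense genes of −0.01 over 1163.

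Genes of short span were lower than longer ones. Protein-coding genes spanning under 5 kb had a median of −0.05, with 15.8% higher and 16.6% lower, those of 20 to 50 kb a median of 0.22, with 40.0% higher and 11.6% lower, and those over 300 kb a median of 0.20. Between classes of uridine content the medians covered a wider range. In 8 equal classes of protein-coding genes by uridine content of the longest transcript, the median at 60 minutes relative to 10 minutes went up in steps from −0.18 in the lowest class (up to 20.5% uridine) to 0.49 in the highest (29.2% and above). In the lowest class 12.03% rose and 23.6% fell, and in the highest 59.1% rose and 2.94% fell. At 60 minutes relative to 20 minutes, a comparison without the 10-minute libraries, the medians ran from 0.02 to 0.26. WT cells showed the same order at 60 minutes relative to 10 minutes, from −0.04 to 0.35. KO cells had 0.03 in the lowest and 0.23 in the highest class, with the second and the third class out of order (0.082 and 0.075). GC content gave the mirror image, from 0.56 in the lowest class to −0.22 in the highest, and transcript length a weaker order, from −0.10 to 0.29. These 3 properties go together between genes. With the GC trend of each library removed, the lowest uridine class had a median of 0.06 and the highest 0.21, and under quantile normalization they had −0.28 and 0.27. After removal of that trend ribosomal protein genes still counted 64 lower and 2 higher and m6A genes 19 higher and 1 lower.

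**Figure D3:**
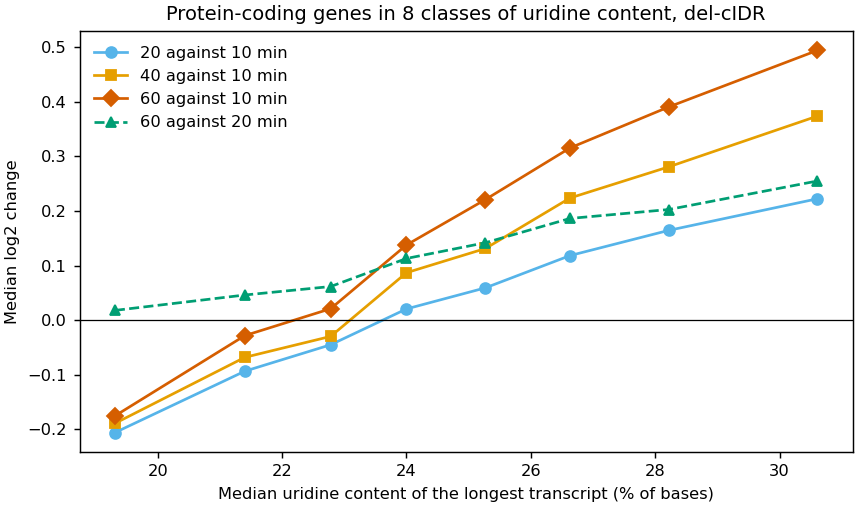
Median log2 change of protein-coding genes relative to the median gene in 8 classes of uridine content in del-cIDR cells, against the median uridine percentage of the class. The change at 60 minutes relative to 10 minutes goes from −0.18 in the class with least uridine to 0.49 in the class with most.

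Differences were also called between later times, in which the 10-minute libraries enter only through the shared spread. At 60 minutes relative to 20 minutes 3412 of 21078 genes (16.2%) rose and 638 (3.03%) fell by limma, or 1064 and 904 after quantile normalization. The calls numbered 4050 in all, 6947 without 10-minute library A and 6933 without 10-minute library B, but 1938 to 2425 when any 1 of the 20 and 60-minute libraries was left out. Zfx (1.74), 1700019D03Rik (1.73), Zfp819 (1.64), Slc30a1 (1.60) and Gm43300 (1.55) were highest and 1700034J05Rik (−1.67), Gm48188 (−1.52), Gm33280 (−1.21), Il12rb2 (−1.17) and Gm7997 (−1.14) lowest. Il12rb2, a subunit of the interleukin 12 receptor, had 61.2 and 51.8 RPM at 10 minutes, 54.6 and 64.5 at 20 minutes, 38.9 and 36.0 at 40 minutes and 20.9 and 22.4 at 60 minutes. Its level was thus lower only from 40 minutes on. Of the lists above, naive pluripotency genes counted 20 higher and none lower and m6A genes 14 and none. CLK, cyclin L and SR protein genes counted 20 and none, and ribosomal protein genes none higher and 10 lower. The unclear splits in the naive pluripotency and the CLK, cyclin L and SR protein lists enter these counts too. At 60 minutes relative to 40 minutes 487 genes (2.31%) rose and 27 (0.128%) fell. Without 10-minute library A or B there were 2017 or 1987 calls, and without 20-minute library A or B 315 or 300. The count went to 0 when any of the 40 or 60-minute libraries was left out, with 1504 to 2157 genes at an unadjusted p under 0.05.

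Repeat elements were read as 59 families with enough reads, of which 10 (16.9%) rose and 6 (10.2%) fell at 60 minutes relative to 10 minutes by limma. The large retrotransposon families lay near the median gene and did not pass the test: LINE L1 at −0.14, SINE B2 at 0.09, SINE Alu at 0.14, LTR ERVK at 0.03 and LTR ERVL at −0.21. Among families of at least 100 RPM, repeats annotated as Unknown rose by 0.60 ± 0.0548 (adjusted p = 0.002088). They had 9725 and 9795 RPM at 10 minutes and 11350 and 11100 at 20 minutes. At 40 minutes they had 12150 and 11950 RPM and at 60 minutes 11970 and 12740. RPM of repeat families, and of copies summed by length below, is scaled to the reads in genes, as for genes. SINE ID rose by 0.21 and the DNA transposon families hAT-Ac by 0.72, Mariner by 0.37, Tigger by 0.24 and unclassified DNA by 0.26. In hAT-Ac 1 copy held 36.8% of reads, and without it the change was 0.57. Satellites fell by 0.37, snRNA repeats by 0.36, srpRNA by 0.48 and tRNA by 0.24. In srpRNA 1 copy held 20.1% of reads, and without it the change was −0.15. In snRNA repeats 1 copy held 13.7% of reads, and without it the change was −0.18. Satellites and tRNA stood at −0.40 and −0.27 without the copy with most reads. The families hAT-Ac, Unknown and hAT-Tip100 kept their calls and direction in every alternative except the spike-in scale, on which all 59 families rose. SINE ID, Satellite, Tigger, srpRNA, tRNA, Mariner, DNA and snRNA lost theirs without 1 or more of the 60-minute libraries. SINE ID, Satellite, Tigger, srpRNA and DNA also lost them when any 20 or 40-minute library was left out, and tRNA when any 20-minute library was. SINE ID, srpRNA and DNA lost them without 10-minute library A as well.

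The fall of hAT-Tip100, by 0.63, came with 1 copy. That copy, at chr17:40153889-40154054 (GRCm39), held 67.4% of the family's reads and changed by −0.90, and the family without it stood at 0.12. Repeats of class rRNA, which had 41.7 and 44.4 RPM at 10 minutes, 20.4 and 25.5 at 20 minutes, 17.2 and 16.5 at 40 minutes and 16.7 and 20.8 at 60 minutes, fell by 0.92. No annotation of the build of the files was used here, so the genes at these copies are not given.

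Copies of the retrotransposon families were also summed by length. L1 copies over 5000 bp, the length class that holds full-length elements, had 104320 and 111550 RPM at 10 minutes, 57848 and 53355 at 20 minutes, 60562 and 60657 at 40 minutes and 54196 and 61048 at 60 minutes. Relative to the median gene they changed by −0.96, −0.73 and −0.64 at 20, 40 and 60 minutes, while L1 copies under 500 bp stood at 0.18, 0.21 and 0.15. ERVL copies over 5000 bp had 4988 and 5518 RPM at 10 minutes, 1576 and 1888 at 20 minutes, 1357 and 1523 at 40 minutes and 1288 and 1467 at 60 minutes. All 6 later libraries were under 2000 RPM, and the changes were −1.61, −1.76 and −1.67. ERVL copies of 2000 to 5000 bp changed by −0.54, −0.51 and −0.46, and those under 500 bp stood at 0.085, 0.065 and 0.019. ERVK copies over 5000 bp stood at −0.44, −0.29 and −0.24. The drop lay between 10 and 20 minutes: at 60 minutes relative to 20 minutes the long L1, ERVL and ERVK copies stood at 0.32, −0.058 and 0.20. In WT cells the same classes changed by −0.28, −0.49 and −0.0049 at 60 minutes relative to 10 minutes and in KO cells by −0.17, −0.385 and 0.011, listed for L1, ERVL and ERVK. These differences between genotypes were not tested. How reads that fit several copies were counted is not given in the sources used here, so reads of near-identical copies are uncertain.

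**Figure D4:**
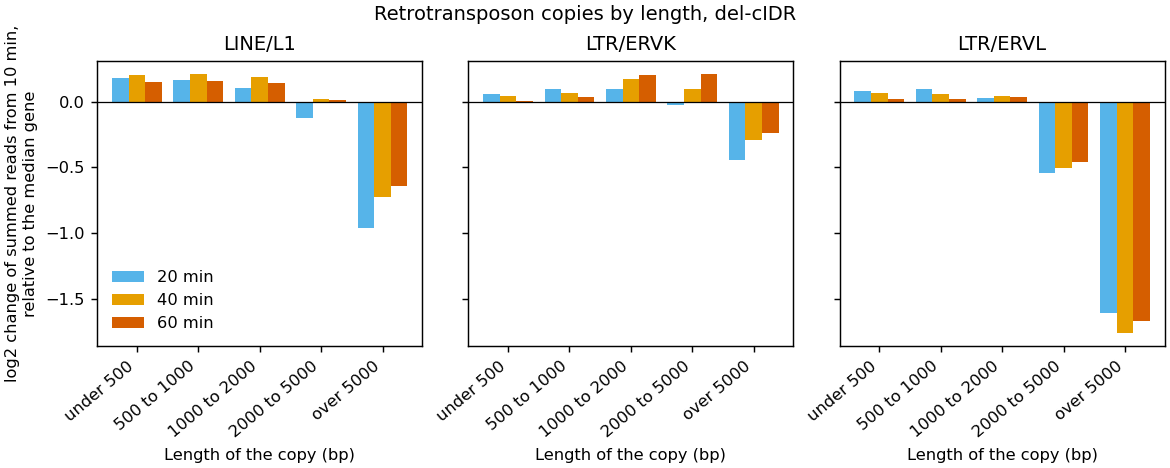
Log2 change of summed reads from 10 minutes, relative to the median gene, for copies of LINE L1, LTR ERVK and LTR ERVL by length class in base pairs at 20, 40 and 60 minutes in del-cIDR cells (bars). Copies over 5000 bp lie below 0 in all 3 families, down to −1.76 for ERVL at 40 minutes, and copies under 2000 bp lie at or above 0.

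Copies were also tested one by one. For single copies RPM is scaled to the reads in repeats, and changes are relative to the median copy tested. Of 225072 repeat copies tested by limma, 21066 (9.36%) rose and 17944 (7.97%) fell at 60 minutes relative to 10 minutes. Relative to the median gene, 26479 rose and 13473 fell. The values that follow for single copies are relative to the median copy. Of 599 ERVL copies over 5000 bp, 543 (90.7%) fell and 1 rose, with a median of −1.64, and of 133 of 2000 to 5000 bp 54.1% fell (median −1.21), against 6.50% lower among 3723 ERVL copies under 500 bp. Of 8892 L1 copies over 5000 bp 47.6% fell and 1.95% rose, and of 16170 under 500 bp 4.16% fell. Of 492 ERVK copies over 5000 bp 33.3% fell. Copies that share sequence share reads and are not independent of each other. On chromosome Y 48.7% of copies fell, and 60.9% of its 253 copies over 5000 bp. Satellite copies fell in 22.3% of cases and copies annotated as Unknown rose in 27.4%.

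The 3 highest and the 3 lowest copies were lightly covered, with means of 1.818 to 17.11 RPM. An L1 copy at chr7:40797699-40798740 rose most, by 4.025, from 0 RPM in both 10-minute libraries to 7.996 and 7.938 at 60 minutes. An L1 copy at chr3:91051573-91055708 had 0.932 and 3.83 RPM at 10 minutes, 6.11 and 7.54 at 20 minutes, 17.5 and 17.6 at 40 minutes and 39.8 and 43.5 at 60 minutes, a rise of 4.02 ± 0.358 (adjusted p = 0.0001562 by limma). Its neighbour at chr3:91049287-91050447 rose by 3.904, with 23.6 and 29.3 RPM at 60 minutes. The lowest were a simple repeat at chr12:18219283-18219377 (−4.516) and a satellite copy at chr6:96987171-96987832 (−3.457). The simple repeat had 13.52 and 9.029 RPM at 10 minutes and 0.05192 and 0 at 60 minutes. Another satellite copy, at chr6:28531616-28532056, had 13.8 and 15.1 RPM at 10 minutes and 1.68 and 1.06 at 20 minutes. It had 1.72 and 0.940 RPM at 40 minutes and 1.45 and 0.571 at 60 minutes, a fall of 3.42. Positions are in GRCm39 as the deposited names give them.

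The change from 10 to 60 minutes was also compared between genotypes. Relative to WT, 609 of 21078 genes (2.89%) gained more in del-cIDR cells and 120 (0.569%) gained less (3.46% in all), by limma on the difference of the changes. In WT at 60 minutes 2834 gene lines had no clear split between the libraries, which may understate the spread there. Relative to KO, the counts were 1756 (8.33%) and 514 (2.44%), or 10.8% in all. On the spike-in scale, which moves the median of all these differences to 0.53 for WT and 0.87 for KO, the counts were 0 and 0 against WT (3313 genes at an unadjusted p under 0.05) and 7402 and 9 against KO. Pla2g4c changed by 2.21 in del-cIDR cells, 0.46 in KO and 0.57 in WT, and the difference from WT was 1.64 ± 0.212 (adjusted p = 0.000189). Socs3, a feedback inhibitor of the LIF pathway, changed by −0.63 in del-cIDR cells, 0.97 in KO and 0.81 in WT. Id2, a BMP target, gained 0.97 in del-cIDR cells and 2.61 in KO.

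The lists were counted in these differences beside the shares over all genes. Against KO these were 8.33% higher and 2.44% lower, and against WT 2.89% higher and 0.569% lower. Of 24 CLK, cyclin L and SR protein genes 14 were higher against KO and 7 against WT, of 27 m6A genes 13 and 4, of 26 exosome genes 10 and 2, and of 16 CCR4-NOT genes 6 and 3. None of these was lower in either comparison, and on the spike-in scale no gene passed against WT. The unclear splits among the CLK, cyclin L and SR protein genes enter these counts too. Replication-dependent histone genes counted 5 higher against KO and 8 against WT of 63, with none lower. Immediate early genes counted 1 higher and 9 lower of 39 against KO, and 1 higher and 4 lower against WT. Of 91 cytoplasmic ribosomal protein genes 1 was higher and 2 lower against KO and none differed by this test against WT. Median uridine content was 28.48% in the CLK, cyclin L and SR protein genes and 27.7% in the m6A genes. It was 26.96% in the CCR4-NOT, 25.66% in the exosome, 18.66% in the histone and 22.95% in the immediate early genes. Over all genes it was 24.79%. In the class with most uridine the median change was 0.49 in del-cIDR, 0.35 in WT and 0.23 in KO cells. In the class with least it was −0.18, −0.04 and 0.03. The part of uridine content in these counts was not tested. The libraries at 10 minutes had 3129083 and 4006054 gene reads in del-cIDR cells, 5045029 and 12279275 in KO and 3772163 and 10252181 in WT, and the part of this depth in the differences was not tested.

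Markers were read to check the label of the cells. All 30 genes of naive pluripotency had a mean of at least 1 RPM, with 9184 to 11400 RPM in sum over the 8 libraries and Tet1 the highest. That mean was also reached by 7 of 14 fibroblast, 13 of 20 endoderm and mesoderm, 7 of 13 trophoblast and 9 of 13 neural markers. A mean of at least 10 RPM was reached by all 30 naive genes and by 3, 5, 2 and 3 markers of the other lists, in that order. Trophoblast markers summed to 69.6 to 104 RPM with Tpbpa at 0 reads, neural markers to 119 to 164 RPM, endoderm and mesoderm markers to 460 to 662 RPM, and fibroblast markers to 1209 to 1460 RPM, nearly all of it Fn1, which stem cells also express. Between 7 and 13 markers of each of these other cell types were tested at 60 minutes relative to 10 minutes, and no list had more than 2 higher or 3 lower.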

How the data were processed

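EU-labelled RNA was measured in 24 libraries, and the 8 of Alkbh5 del-cIDR cells are described here. The authors deposited a log2 ratio of each labelling time to 10 minutes for 56941 genes and for repeat copies, scaled to spike-in reads with both replicates combined, per the file headers and values. Columns that start with ki were taken as del-cIDR, the genotype the other prefixes leave. Per the submitters' processing notes the tools include HISAT2, SAMtools and Picard, and the build is GRCm39. For the counter and its use of strand nothing is stated in the sources used here, so reads of overlapping, antisense and near-identical genes are uncertain. Between 58.7 and 67.3% of counts of 1 to 10 reads per gene were even, and whether mates were counted apart is not known.

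Each ratio that is not 0 was solved for whole reads per library with a constant of 40000, which succeeded for 100% of such lines (largest relative error 2.9e-15 in genes). The library with more spike-in reads of each time is called A, the other B. Where several splits between A and B solved a line, the split nearest the median ratio of the pair was taken, and 270 tested genes kept an unclear split. Gene IDs were matched to GENCODE M21 for symbols, classes and transcripts (52000 of 56941 matched). Genes with a mean of at least 1 RPM and reads in at least 6 of 8 libraries were tested. The test was limma 3.58.1 in R 4.3.3 (empirical Bayes with trend, pseudocount 0.5). Repeat families and copies had the same filter and pseudocount. Families were fitted without a trend in the spread, and copies were set against the median copy instead of the median gene. These tests on recovered reads replace a test on the deposited ratios, which hold no replicates. The steps were tested on simulated data.

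Genes were named by rank: the 12 highest and 12 lowest at 60 minutes relative to 10 minutes with at least 10 RPM, the 5 highest and 5 lowest in other contrasts, the 2 highest and 2 lowest of each list, families of at least 100 RPM and the 3 highest and lowest copies. The time course and all gene lists were chosen with earlier results of these data known, and support nothing on their own. Depth was 3129083 to 21275947 reads in genes per library. Alternatives were scaling, pseudocount, filter, spread, unclear splits, GC trend (added after the data were seen) and leaving out each library. A list's count is given beside the shares over all genes, with no test of the list.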

Additional observations from a re-analysis of the deposited data

Results flagged for a closer look

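These genes changed differently from 10 to 60 minutes in del-cIDR cells than in another genotype, by a limma test of the difference itself adjusted over 21078 genes, and are the 5 furthest in each direction. Values are the change in del-cIDR cells minus the change in the other genotype (log2, relative to the median gene). On the spike-in scale no gene passed the test against WT, with 3313 genes at an unadjusted p under 0.05.

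Against KO, Gm17024 (2.01), Pla2g4c (1.75), Xkr6 (1.75), the GABA receptor subunit gene Gabrb1 (1.69) and Zfp551 (1.56) gained more in del-cIDR cells. Gm10443 (−1.75), Gm23119 (−1.65), Id2 (−1.65), Gm11361 (−1.60) and Socs3 (−1.59) gained less, and for Id2 the change was 0.97 in del-cIDR cells and 2.61 in KO. Without 60-minute library B the calls for Gm10443 (−1.56), Gm23119 (−1.39) and Gm11361 (−1.66) were lost. Gm11361 also lost its call without 10-minute library A (−1.20) or 60-minute library A (−1.545).

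Against WT, Pla2g4c (1.64), Gabrb1 (1.54), Gm17024 (1.49), Letm2 (1.36) and Rrh (1.26) gained more. Gm16477 (−1.53), Socs3 (−1.43), the stress gene Gadd45b (−1.24), the sugar transporter gene Slc50a1 (−1.21) and Ppp1r14a (−1.20) gained less. Gadd45b changed by −0.20 in del-cIDR cells and 1.04 in WT. Slc50a1 lost its call without 10-minute library B (−1.07), 60-minute library A (−1.13) or 60-minute library B (−1.29). Gm16477 lost its call without 10-minute library A (−1.265), 60-minute library A (−1.41) or 60-minute library B (−1.64). Gm10443 and Gm16477 are processed pseudogenes, and how reads were shared between them and their parent genes is not known. No explanation was tested.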

How the results depend on the processing

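No paired analysis was possible because replicate numbers could not be matched to the recovered libraries. On the spike-in scale, which adds 1 constant per library and raises nearly every gene, the calls numbered 20213 at 60 against 10 minutes, 20656 at 40 against 10 minutes, 20163 at 20 against 10 minutes, 766 at 60 against 20 minutes and 0 at 60 against 40 minutes (608 genes at an unadjusted p under 0.05 by limma), 0 for del-cIDR against WT (3313 at an unadjusted p under 0.05), 7411 for del-cIDR against KO, 59 repeat families and 212057 repeat copies. Values of single genes on that scale are not listed. Quantile normalization gave 1968 calls at 60 against 20 minutes and 2 at 60 against 40 minutes. Without a trend in the spread there were 1262 at 20 against 10 minutes, 2170 at 60 against 20 minutes and 0 at 60 against 40 minutes (2407 at an unadjusted p under 0.05). No filter on low values gave 13183 at 60 against 10 minutes and 77 at 60 against 40 minutes, and a mean of at least 5 RPM gave 287 there. A spread from all 24 libraries gave 1197 at 60 against 40 minutes. Removing the GC trend gave 1748 at 20 against 10 minutes, and a mean of at least 3 RPM gave 22681 repeat copies. Without the 10-minute libraries the slope of captured RNA was 0.475 for genes and 0.320 for repeats. The cause of these shifts was not tested.

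Leaving out any 1 library gave 662 to 5940 calls at 20 against 10 minutes, 2970 to 8802 at 40 against 10 minutes, 5191 to 10524 at 60 against 10 minutes, 1938 to 6947 at 60 against 20 minutes and 0 to 2017 at 60 against 40 minutes (0 without any of the 40- or 60-minute libraries). It gave 279 to 1438 for del-cIDR against WT, 1119 to 3087 for del-cIDR against KO, 6 to 26 repeat families, 7012 to 85990 repeat copies, and slopes of 0.979 to 1.26 for genes and 0.855 to 1.18 for repeats. Exosc2 (0.02, not called) stood at −0.34 under quantile normalization (limma adjusted p = 0.01729), and mt-Nd1 (0.32) at −0.0734 with the GC trend removed. Of 240 values for single genes, families and copies, 160 kept direction and call in all settings run, the spike-in scale apart. Alternatives by position of repeats inside or outside genes were not run. The libraries at 10 minutes are the shallowest, the part of depth in the comparisons with them was not tested, and errors cover the spread between 2 libraries a group.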
